A study of Homo sapiens with 54 samples.

Results

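The cholesterol and fatty acid synthesis genes described here are 31 named genes of the 27978 in the count table of MDA-MB-231 cells, a line from a human triple-negative breast cancer, treated with Compound Kushen Injection (CKI). They were listed by name, with earlier results of these data known, and comprise 19 enzymes of sterol synthesis, 5 regulators and sterol carriers, and 7 enzymes of fatty acid synthesis and desaturation. CKI is prepared from plant extracts. The study took it apart by chromatography and put it together again without chosen compounds, and the comparisons below ask which changes in these genes followed whole CKI and which remained when compounds were left out. RNA was sequenced in 54 libraries of 18 groups, 3 biological replicates each, all from the same line grown in DMEM with 10% serum. In batch 1, cells were left untreated (UT) or received, for 24 or 48 h, CKI at 2 mg/ml, CKI without oxymatrine and oxysophocarpine (labelled N_2, here N-OmtOspc), CKI without those compounds and macrozamin (N_3, here N-MacOmtOspc), oxymatrine and oxysophocarpine alone (OO, here OmtOspc), or macrozamin with that pair (MOO, here MacOmtOspc). In batch 2, at 48 h only, cells were untreated or received CKI or CKI lacking macrozamin (N-Mac), N-methylcytisine (N-Nme), oxymatrine (N-Omt) or trifolirhizin (N-Tri). The mixtures were given at the equivalent of 2 mg/ml CKI. No group here received CKI that was taken apart and rebuilt in full, so the loss of a compound and the act of rebuilding cannot be told apart in any mixture. Whether the untreated cells received the vehicle is not given in the sources used here.

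Cholesterol is built from acetyl-CoA through mevalonate, isoprenoid diphosphates and squalene to lanosterol, and lanosterol is trimmed to cholesterol by a chain of demethylases, reductases and isomerases. Fatty acids are built from the same acetyl-CoA by ATP citrate lyase, acetyl-CoA carboxylase and fatty acid synthase, and are then elongated and desaturated. Genes of both branches are switched on by the sterol regulatory element binding proteins (SREBPs), membrane-bound transcription factors that SCAP escorts out of the endoplasmic reticulum when sterols are scarce and that INSIG proteins hold back when sterols are plentiful. SREBF2 encodes the factor that acts mostly on sterol genes, and SREBF1 encodes the forms that act more on fatty acid genes.

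Total counts were between 17673537 and 26138924 per library, and no member had fewer than 128 counts in any library, so all 31 passed the filter on low counts in each of the 27 comparisons of groups. Levels are given as CPM, counts scaled to a common library total, after TMM scaling. Fold changes are log2 ratios from edgeR's quasi-likelihood test, and a gene was called at an adjusted p-value under 0.05 over all genes tested. The line's markers VIM, CD44 and AXL were at 1144 to 1565, 414 to 637 and 821 to 1069 CPM in the 9 untreated libraries, while ESR1, PGR and FOXA1 stayed at or under 0.552 CPM. KRT19 and GATA3, listed among luminal genes, were present at up to 841 and 34.5 CPM. Of the 15 listed markers of fibroblasts, colon epithelium and glia, CDX2 and OLIG2 were at 0 in all 9 untreated libraries, while COL1A1, COL1A2, PDGFRB and GFAP reached 20.4, 44.6, 13.4 and 8.34 CPM. The fibroblast list summed to 32.6 to 76 CPM in untreated and 14.5 to 99.7 CPM in treated libraries. The summed level of the 8 listed markers of the line was 6120 to 8030 CPM in untreated libraries, 2822 to 4239 CPM in treated libraries at 48 h and 3769 to 8112 CPM in those at 24 h, where the N-OmtOspc libraries (5171 to 8112 CPM) overlapped the untreated ones. The part of either list in the results was not tested. In 3 of the 54 libraries (CKI replicate 1, OmtOspc replicate 2 and N-MacOmtOspc replicate 2, all at 24 h) the profile leaned away from the other replicates along the difference between batch 2 and batch 1, with slopes of 0.624, 0.574 and 0.557 over 1106 genes, against -0.384 to 0.0919 in the other 51. Their sample titles are also the only ones without a number after the treatment name, and what this reflects is not given in the sources used here. Member counts that rest on them are given with and without them, as are members whose call changed or whose called value moved by over 1.5 times. The slopes follow the batch difference alone. Chi-square per degree of freedom, which measures spread beyond counting noise, was 84.9 and 131 for N-OmtOspc replicate 3 at 24 h against replicates 1 and 2. Between those replicates it was 11.2. For N-MacOmtOspc replicate 2 at 48 h it was 44.3 and 58.5, against 12.5 between the others. These libraries were kept. In RNA from whole cultures, a change in the mix of cells and a change within each cell cannot be told apart.

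Reference promoter sequences (RefSeq, GRCh38.p14, 250 bases before to 50 after each start site) were found for 27 of the members, with 38 promoters between them. CCAAT, the box bound by NF-Y, stood on either strand in 65.8% of these 38 promoters and in 34.6% of all 35116 promoters, and 42.1% held it 2 or more times against 10.8% of all. GGGCGG, a GC box, was in 86.8% against 45%. The E-box CACGTG was in 13.2% against 7.26%. TCACNCCAC, the core of the classic sterol regulatory element, was in 1 of the 38, that of SREBF2, and in 1.13% of all promoters. The 5 stretches below are the first 150 bases of such windows. They show 2 enzymes of the lanosterol branch with repeated CCAAT boxes, both SREBP genes, and the elongase ELOVL6, whose response differed from that of the other fatty acid genes. Capitals mark matches to these 4 motifs, written as they read on the strand shown whichever strand they match, and overlapping matches run together. The SREBF1 stretch holds no match. Promoters of one gene overlap in part, and a match is a description of the letters.
MSMO1, chr4:165327419-165327568, plus strand: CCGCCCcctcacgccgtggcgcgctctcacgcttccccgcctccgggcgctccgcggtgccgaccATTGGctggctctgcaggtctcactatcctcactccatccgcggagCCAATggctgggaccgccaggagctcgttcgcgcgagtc
NSDHL, chrX:152830813-152830962, plus strand: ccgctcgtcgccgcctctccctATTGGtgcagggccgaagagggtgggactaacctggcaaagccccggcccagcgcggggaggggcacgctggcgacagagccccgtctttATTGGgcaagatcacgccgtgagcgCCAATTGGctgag
SREBF2, chr22:41832855-41833004, plus strand: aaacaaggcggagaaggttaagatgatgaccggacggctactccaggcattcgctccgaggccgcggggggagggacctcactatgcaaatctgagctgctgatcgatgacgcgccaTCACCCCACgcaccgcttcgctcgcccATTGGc
SREBF1, chr17:17837087-17837236, minus strand: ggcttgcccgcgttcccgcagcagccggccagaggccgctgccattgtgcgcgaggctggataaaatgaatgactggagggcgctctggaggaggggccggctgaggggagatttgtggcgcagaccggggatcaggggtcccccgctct
ELOVL6, chr4:110198716-110198865, minus strand: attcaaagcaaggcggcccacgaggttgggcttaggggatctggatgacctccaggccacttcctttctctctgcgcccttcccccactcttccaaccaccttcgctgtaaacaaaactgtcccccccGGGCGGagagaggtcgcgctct
The whole 300-base windows held 4 CCAAT boxes for MSMO1, 5 for NSDHL, 1 for SREBF2 and none for SREBF1 or ELOVL6.

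**Figure D1:**
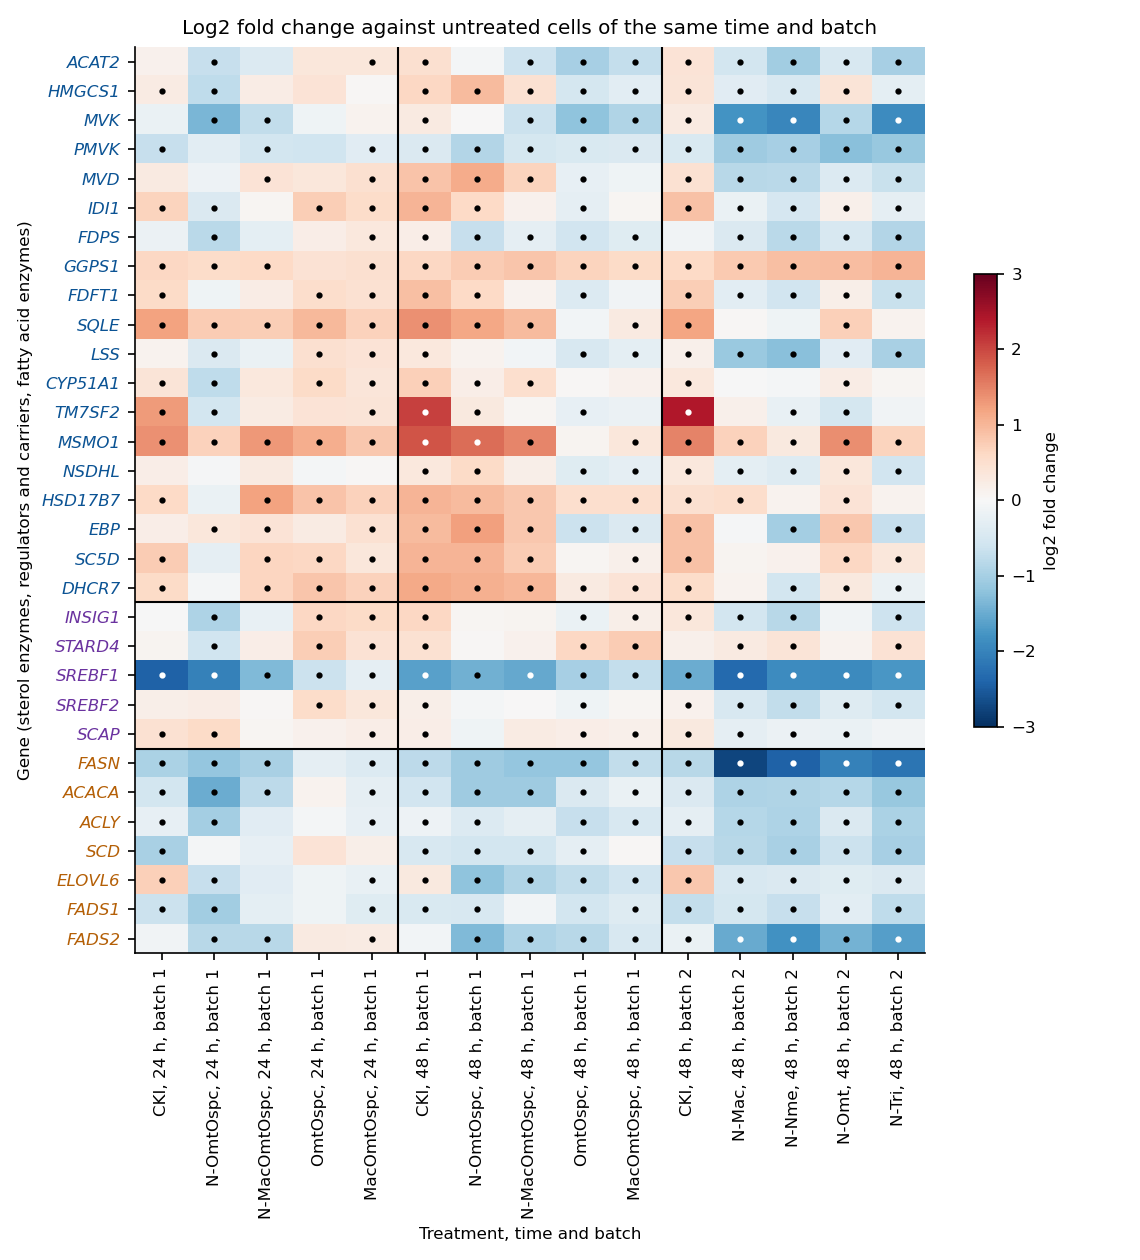
Log2 fold change of each of the 31 genes (rows; sterol enzymes, then regulators and carriers, then fatty acid enzymes) in the 15 comparisons with untreated cells of the same time and batch (columns). Red is higher and blue lower than untreated, and a dot marks a call at an adjusted p-value under 0.05. The CKI columns are red in most sterol rows and blue in most fatty acid rows, SREBF1 is blue in all 15 columns, and the N-Mac, N-Nme and N-Tri columns are blue in most rows.

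Whole CKI raised most sterol enzymes and lowered most fatty acid enzymes, at both times and in both batches. After 24 h, 11 of the 19 sterol enzymes were called higher and 1 lower, and 5 of the 7 fatty acid enzymes were lower and 1 higher, where 19.3% of all 14245 genes tested were called higher and 19.3% lower. After 48 h in batch 1 the sterol enzymes counted 18 higher and 1 lower and the fatty acid enzymes 1 higher and 5 lower, beside 31.6% and 31% of all genes. In batch 2 the same numbers were 17 and 1, and 1 and 6, beside 34.1% and 34.4%. The median log2 fold change of the sterol enzymes was 0.38, 0.85 and 0.49 in these comparisons and that of the fatty acid enzymes -0.56, -0.45 and -0.44, while the median over all genes was within 0.01 of 0 each time. The 3 comparisons share no library, and 11 sterol enzymes were called higher and 5 fatty acid enzymes lower in all of them. How many of all genes were called in the same direction in all 3 was not counted. Without CKI replicate 1 at 24 h, 16 sterol enzymes were called higher and 1 lower, and 1 fatty acid enzyme higher and 5 lower, with MSMO1 at 1.44, TM7SF2 at 1.35, SREBF1 at -2.20 and FASN at -0.84. Calls over all genes rose there from 5512 of 14245 genes to 7636 of 14410.

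The 3 largest rises under CKI, in each of these comparisons, were on the stretch from squalene to cholesterol. MSMO1, the sterol methyl oxidase that strips methyl groups from lanosterol derivatives, was at 133, 127 and 128 CPM in untreated cells of batch 1 at 48 h and at 486, 463 and 469.8 CPM with CKI. All treated libraries lay above all untreated ones, and its log2 fold change was 1.88 (SE 0.05, adjusted p = 8.33e-15), with 1.37 at 24 h and 1.49 in batch 2. TM7SF2, a sterol reductase whose gene adjoins VPS51, went from 17.1, 16.99 and 15.6 CPM to 87.4, 85.4 and 88.1 CPM in batch 2. That was the largest change under CKI among the 31 genes at 48 h in each batch, with log2 fold changes of 2.41 (SE 0.05, adjusted p = 4.01e-12) in batch 2, 2.04 in batch 1 and 1.28 at 24 h. SQLE, squalene epoxidase and a rate-limiting step of the branch, was at 28.9, 26.7 and 28.04 CPM in untreated cells and 61.6, 66.1 and 65.8 CPM with CKI at 24 h. The groups did not overlap, and its log2 fold change was 1.21 (SE 0.08) at 24 h, 1.38 at 48 h in batch 1 and 1.18 in batch 2. HSD17B7, a ketosteroid reductase of the same stretch, rose by 0.59, 1.02 and 0.49, and SC5D, the sterol desaturase, by 0.77, 1.02 and 0.89. DHCR7, the last reductase, rose by 0.57, 1.14 and 0.54, and CYP51A1, the lanosterol demethylase, by 0.38, 0.72 and 0.32. EBP, the sterol isomerase, was not called at 24 h (0.20, and 0.41, called, without CKI replicate 1) and rose by 0.94 and 0.88 at 48 h. NSDHL, a dehydrogenase that works beside MSMO1, had 0.19 at 24 h (not called, and 0.36, called, without CKI replicate 1) and rose by 0.31 and 0.32 at 48 h.

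No step before squalene rose as far as these 3. IDI1, which interconverts the isoprenoid building blocks, rose by 0.66 at 24 h and 1.02 and 0.89 at 48 h, and FDFT1, squalene synthase, by 0.58, 0.90 and 0.73. HMGCS1, which makes the precursor of mevalonate, rose by 0.25, 0.62 and 0.39. MVD, the diphosphomevalonate decarboxylase, had 0.27 at 24 h (not called, and 0.49, called, without CKI replicate 1) and rose by 0.85 and 0.45. LSS, lanosterol synthase, acts after squalene and so belongs to the stretch from squalene to cholesterol. ACAT2, the first thiolase, MVK, mevalonate kinase, and LSS were at 0.12, -0.19 and 0.10 at 24 h, none of them called. Without CKI replicate 1, ACAT2 (0.26) and LSS (0.22) were called. At 48 h all were called, at 0.48, 0.27 and 0.31 in batch 1 and 0.40, 0.27 and 0.16 in batch 2. FDPS, farnesyl diphosphate synthase, was near untreated throughout, at -0.18, 0.19 and -0.10, and of these only the middle value was called. PMVK, the kinase after MVK, went the other way. It was at 30.1, 37.2 and 31.8 CPM in untreated cells and 26.8, 23.2 and 23.1 CPM with CKI at 48 h in batch 1, and changed by -0.70, -0.43 and -0.45 on the log2 scale in the 3 comparisons. GGPS1, which takes farnesyl diphosphate out of the sterol line to make the lipid anchor of many small GTPases, rose by 0.63, 0.63 and 0.59. HSD17B7 and FDPS have near-identical pseudogene copies among which reads can be split, so their values are less certain.

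Of the regulators, SREBF1 moved most. It was at 595, 542 and 549 CPM in untreated cells at 24 h and at 68.3, 124 and 121 CPM with CKI, a log2 fold change of -2.43 (SE 0.21, adjusted p = 0.000211). Every treated library was under every untreated one, and the log2 fold change was -1.64 and -1.49 at 48 h. SREBF2 was at 279.7, 262 and 273 CPM without and 305, 306 and 304 CPM with CKI at 48 h in batch 1, a rise of 0.18 that was small but outside the spread of the replicates. At 24 h it was at 0.17, not called, and without CKI replicate 1 at 0.26, called. INSIG1 was at 246, 234 and 236 CPM and 385, 352 and 362 CPM in the same groups. It rose by 0.63 there and by 0.35 in batch 2, and was at -0.01 and not called at 24 h. The difference between the times was called for INSIG1 (0.64, SE 0.12, adjusted p = 0.0224) and was not with the replicate number as a block (0.65, adjusted p = 0.21). The count of such members, given with the times below, also depended on single libraries. SCAP rose by 0.45, 0.20 and 0.30, and STARD4, a soluble sterol carrier, was called only at 48 h in batch 1, at 0.46.

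FASN, the fatty acid synthase itself, was at 957, 937 and 1092 CPM in untreated cells at 24 h and 418, 589.8 and 523 CPM with CKI. The groups did not overlap, and its log2 fold changes were -0.96 (SE 0.13), -0.78 and -0.83. ACACA, the carboxylase that commits acetyl-CoA to fatty acids, changed by -0.56, -0.57 and -0.44, and ACLY, which supplies acetyl-CoA from citrate, by -0.24, -0.16 and -0.28. SCD, which puts the first double bond into saturated chains, changed by -0.97, -0.47 and -0.68. FADS1, the delta-5 desaturase, was at 262, 245 and 243 CPM without and 176, 181 and 189.5 CPM with CKI at 48 h in batch 1 and changed by -0.64, -0.45 and -0.71. FADS2, the delta-6 desaturase, was called only in batch 2, at -0.19. ELOVL6, which lengthens palmitate to stearate, was the exception. It went from 113, 120.3 and 110.4 CPM to 199, 202 and 199 CPM in batch 2, with no overlap, and rose by 0.82 (SE 0.04) there, by 0.30 in batch 1 at 48 h and by 0.71 at 24 h.

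The CKI effect at 48 h was tested for a difference between the batches, and it differed for 10 of the 31 genes, where 13.8% of all genes tested differed. The log2 fold changes of MSMO1, DHCR7, CYP51A1, MVD, HSD17B7, FDPS, SCD and FADS1 were lower in batch 2 than in batch 1, with differences of -0.60 to -0.20, and those of TM7SF2 and ELOVL6 higher, by 0.37 and 0.54. Untreated cells of the batches differed too. At 48 h, 13 members were higher in every untreated library of batch 2 than in every one of batch 1, 9 were lower and 9 overlapped. How many of all genes part in this way was not counted, so these numbers describe the members only. MSMO1 was at 129 ± 3.02 CPM (SD, n = 3) in batch 1 and 215 ± 33.2 CPM (SD, n = 3) in batch 2, and SREBF1 at 686 ± 81.0 CPM (SD, n = 3) and 342 ± 5.63 CPM (SD, n = 3). For that reason each mixture was compared only within its batch.

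**Figure D2:**
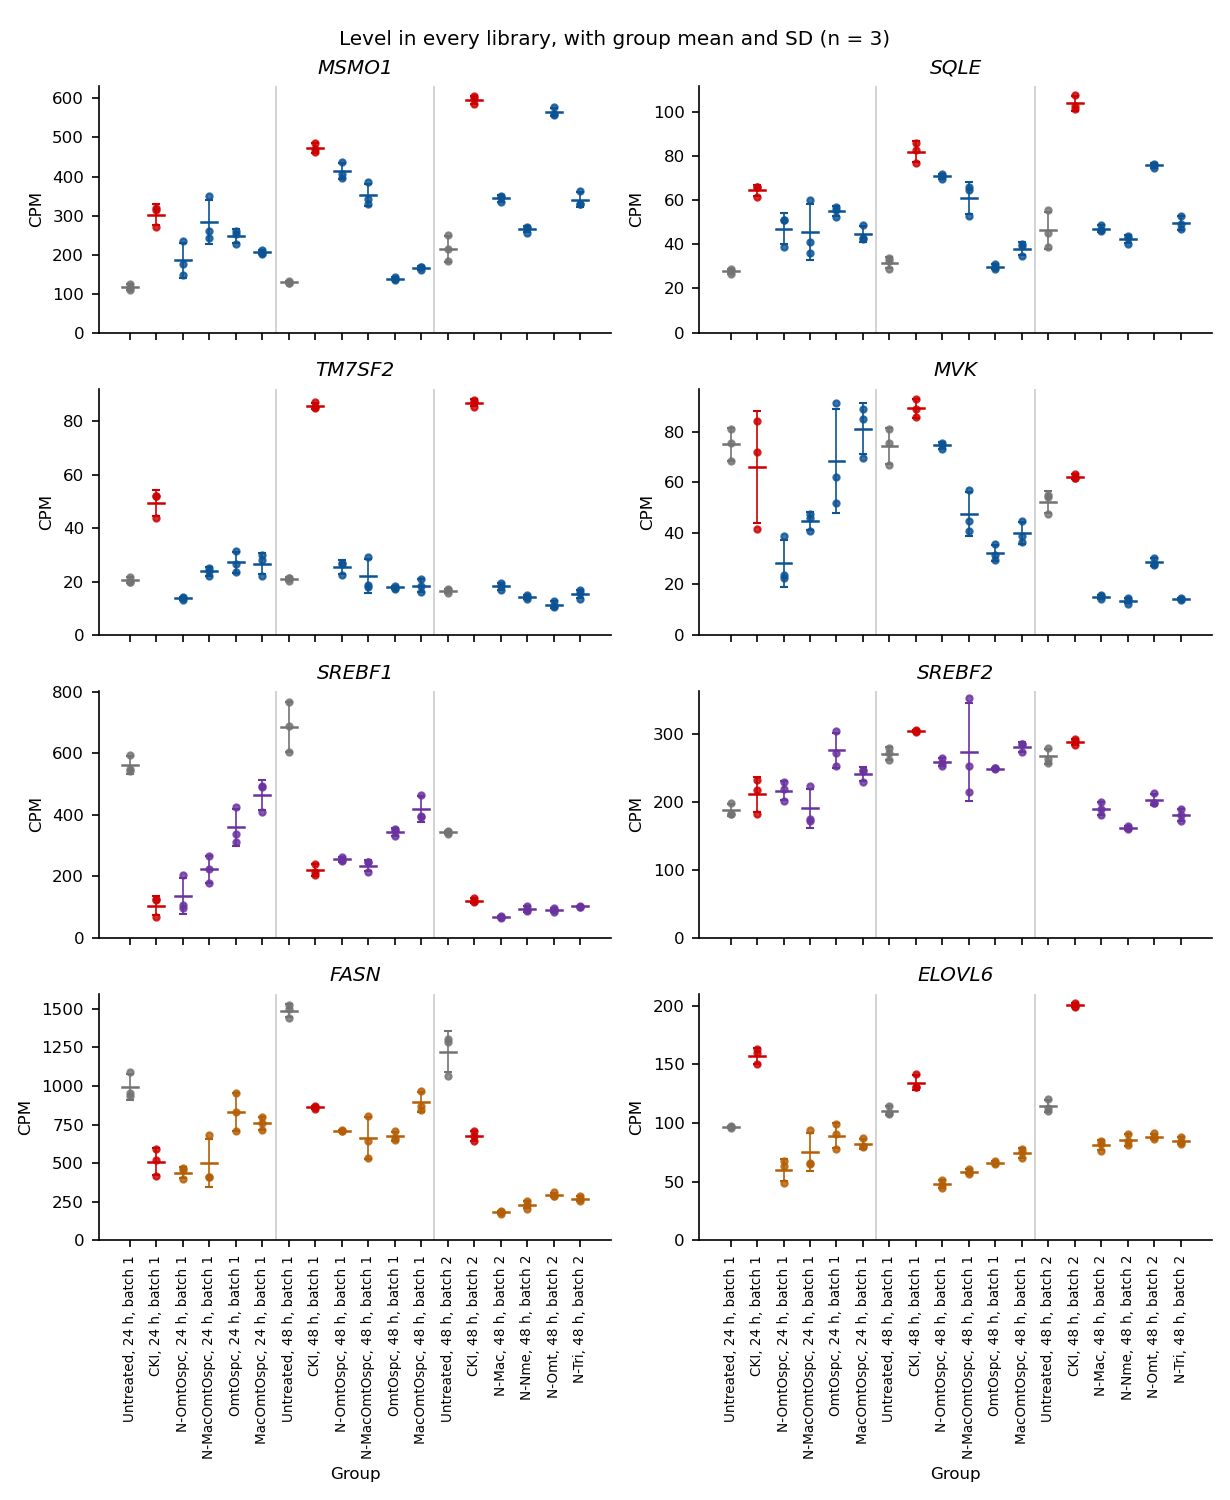
CPM of 8 of the genes in each of the 54 libraries, by group, with grey for untreated, red for CKI and other colours for mixtures. Horizontal bars are group means and error bars the SD (n = 3), and vertical lines part 24 h, 48 h in batch 1 and 48 h in batch 2. TM7SF2 and ELOVL6 are highest with CKI, FASN and SREBF1 are low in most treated groups, and MVK is lowest in the N-Mac, N-Nme and N-Tri groups.

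With the mixture without oxymatrine and oxysophocarpine, most sterol enzymes were higher than untreated at 48 h and most fatty acid enzymes lower at both times. At 24 h the sterol enzymes were called in both directions. With N-OmtOspc at 24 h, 4 sterol enzymes were called higher and 8 lower than untreated, 6 of the 7 fatty acid enzymes were lower, and 1 regulator was higher and 3 lower, beside 33% and 33.8% of all genes tested. At 48 h 14 sterol enzymes were higher and 2 lower, all 7 fatty acid enzymes were lower, and the background was 40.1% and 40.4%. With N-MacOmtOspc the sterol enzymes counted 8 higher and 2 lower at 24 h (background 23.8% and 22.1%) and 10 and 4 at 48 h (background 32.4% and 32.3%), and the fatty acid enzymes 0 higher and 3 lower at 24 h and 0 and 5 at 48 h. Without replicate 2 of N-MacOmtOspc at 24 h, 9 sterol enzymes were called higher and 6 lower and all 7 fatty acid enzymes lower. Calls over all genes rose as well, from 6640 of 14464 genes to 10086 of 14766. In that setting HMGCS1 changed sign, from 0.22, not called, to -0.31, called. Also called there, and not with all libraries, were ACAT2 (-0.63), FDPS (-0.45), LSS (-0.44), INSIG1 (-0.51), ACLY (-0.53), ELOVL6 (-0.54), FADS1 (-0.64) and SCD (-0.45) as lower, and NSDHL (0.28) and SCAP (0.19) as higher. For N-OmtOspc at 24 h the scaling matters. With library sizes alone, the median over all genes moved by -0.30, and 2 of the 31 members were called higher and 22 lower, against 5 and 17 after TMM scaling.

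HMGCS1 shows the turn with time. It was at 80.8, 89.4 and 87.7 CPM untreated and 49.05, 48.8 and 52.3 CPM with N-OmtOspc at 24 h, and at 98.3, 90.4 and 87.04 CPM and 177, 184 and 166 CPM at 48 h. It changed by -0.76 and then stood higher by 0.94, a difference between the times of 1.71 (SE 0.11, adjusted p = 4.94e-07). CYP51A1 went from -0.76 to 0.19, IDI1 from -0.43 to 0.60 and TM7SF2 from -0.56 to 0.29, all called at both times. MVK was at 23.5, 22.4 and 38.9 CPM with N-OmtOspc at 24 h against 81.1, 75.6 and 68.4 CPM untreated, a change of -1.38, and at 0.01, not called, at 48 h. EBP rose by 1.24 with N-OmtOspc at 48 h, from 104, 109.9 and 112 CPM to 256, 268 and 243 CPM. In all, 24 of the 31 members had a different effect at 48 h than at 24 h with N-OmtOspc, 19 of them more positive at 48 h, where 41% of all genes differed. With library sizes alone the number was 26, with 25 more positive. Leaving out 1 library at a time gave 22 to 29. With N-MacOmtOspc no member differed between the times, where 3.54% of all genes did. At an unadjusted p-value under 0.05 the number for N-MacOmtOspc was 2, beside 2866 of 14953 genes tested. Without its replicate 2 at 24 h it was 6 at the adjusted threshold, beside 2205 of 15190 genes tested. These were HMGCS1, INSIG1, FADS1, SQLE, CYP51A1 and LSS, all more positive at 48 h. MSMO1 and SQLE rose with N-OmtOspc already at 24 h, by 0.69 and 0.77, and with N-MacOmtOspc by 1.30 and 0.73, the latter 0.48 without replicate 2. The spread of N-OmtOspc replicates at 24 h was wide for MSMO1, at 175, 147 and 234 CPM.

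Against whole CKI, N-OmtOspc at 24 h had 14 sterol enzymes lower and none higher, where 27.5% of all genes were lower and 26.5% higher, and 15 were lower without CKI replicate 1, MVD being the addition (-0.44 with it and -0.67 without). The fit without it called 7940 of 14598 genes. At 48 h 11 were lower and 4 higher (background 39.5% and 38.3%). TM7SF2 differed most at both times, by -1.84 (SE 0.14) and -1.75 (SE 0.07), and ELOVL6 came next, at -1.39 and -1.49, with 47.9 ± 3.5 CPM (SD, n = 3) at 48 h against 134 ± 6.06 CPM (SD, n = 3). FADS2 was at -1.23 at 48 h. HMGCS1, MVD, NSDHL and EBP were the 4 sterol enzymes above whole CKI at 48 h, by 0.27 to 0.32. The further loss of macrozamin was tested between the mixtures. N-MacOmtOspc against N-OmtOspc had 12 members higher and 1 lower at 24 h, beside 18.6% and 18.1% of all genes, and 5 and 9 at 48 h, beside 19.6% and 19.5%. HSD17B7 led at 24 h with 1.41, from 11.7, 8.63 and 17.9 CPM to 32.7, 37.2 and 31.2 CPM, and MVK at 48 h with -0.65. With library sizes alone these splits were 20 and 0 at 24 h and 1 and 12 at 48 h, and the median over all genes moved by 0.28 and -0.12. Without N-OmtOspc replicate 1 or 2 the number called at 24 h was 3 or 5, and without N-MacOmtOspc replicate 2 it was 11, all higher, MVK (0.63) and SCAP (-0.37) being no longer called. The last of these fits called 5990 of 14780 genes. HMGCS1, INSIG1 and STARD4 went there from 1.00, 0.73 and 0.81 to 0.47, 0.44 and 0.52. The number at 48 h, without replicate 1 or 3 of N-OmtOspc, was 7 or 8.

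Oxymatrine and oxysophocarpine alone gave the reverse order, a rise of sterol genes at 24 h and a fall at 48 h. With OmtOspc at 24 h, 9 sterol enzymes were higher, none was lower and no fatty acid enzyme was called, beside 8.54% and 7.92% of all genes. At 48 h 3 were higher and 12 lower and all 7 fatty acid enzymes were lower, beside 34.1% and 33.7%. With MacOmtOspc the sterol enzymes counted 15 higher and 1 lower at 24 h and 6 and 8 at 48 h, and the fatty acid enzymes 1 and 5, then 0 and 6. The background was 18.1% and 17.7% at 24 h and 30.5% and 30.1% at 48 h. Without OmtOspc replicate 2 at 24 h, 11 sterol enzymes were called higher and none lower, ACAT2 (0.44) and GGPS1 (0.54) being the additions. That fit called 2795 of 14338 genes. The 24 h count for OmtOspc depended on single controls. The 13 members called became 5, 4 and 5 without untreated replicate 1, 2 and 3, and the MacOmtOspc count of 27 became 8 when all 18 libraries of that time were fitted together. Calls over all genes in these fits are not given.

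FDFT1 was at 173, 174 and 170.4 CPM untreated and 275, 232 and 240.2 CPM with OmtOspc at 24 h, and at 186, 181 and 186 CPM and 142, 144 and 135 CPM at 48 h. The treated libraries were above the untreated ones first and under them later, with log2 fold changes of 0.53 and -0.40 and a difference of -0.91 (SE 0.10, adjusted p = 0.000154). LSS went from 0.49 to -0.49, IDI1 from 0.73 to -0.28, INSIG1 from 0.63 to -0.21 and SREBF2 from 0.56 to -0.13, all called at both times. ACAT2 had the largest difference between the times, -1.32, at 122, 94.9 and 116 CPM at 24 h and 45.8, 43.1 and 47.3 CPM at 48 h, against 86.9, 92.3 and 83.5 and 92.6, 91.2 and 86.7 CPM untreated. SQLE and MSMO1 rose by 0.98 and 1.08 at 24 h and were at -0.09 and 0.09, not called, at 48 h. In all 20 members differed between the times with OmtOspc and 21 with MacOmtOspc, each of them toward lower values at 48 h, where 11.9% and 21% of all genes differed. Without OmtOspc replicate 2 at 24 h the first number was 23, with EBP, MVD and NSDHL added, beside 2597 of 15022 genes tested. The 24 and 48 h effects of CKI differed for 5 members, MSMO1, TM7SF2, INSIG1 and SCD upward and ELOVL6 downward, where 1.56% of all genes differed. Without CKI replicate 1 at 24 h they differed for 14 members, beside 1418 of 15012 genes tested. Added were DHCR7, EBP, FDFT1, HMGCS1, MVD, SC5D, SREBF1 and STARD4 upward and SCAP downward. With all libraries and the replicate number as a block the count was 0. That count of 5 fell to 1 or 2 without any 1 of the replicates of CKI at 48 h, of untreated cells at 48 h, or of untreated replicates 1 and 2 at 24 h. STARD4 did not turn. It was at 60.2, 50.3 and 50.9 CPM untreated and 96.95, 85.7 and 89.4 CPM with MacOmtOspc at 48 h, a rise of 0.75, and at 0.43 at 24 h.

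**Figure D3:**
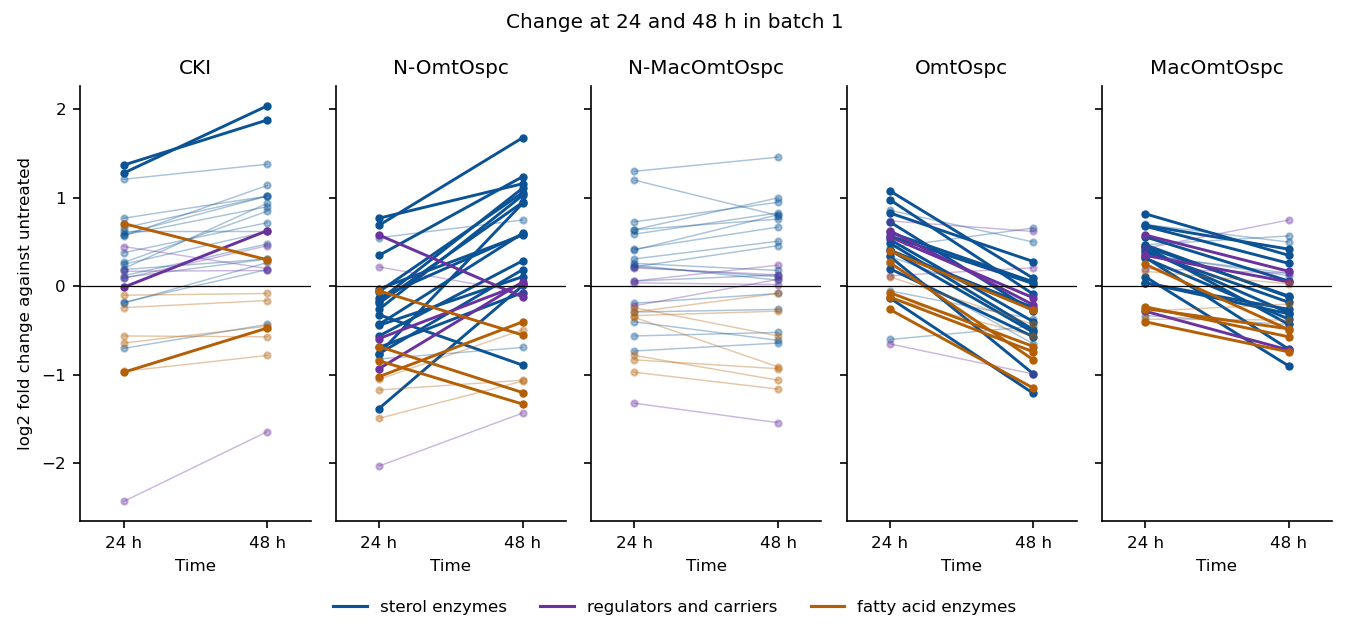
Log2 fold change against untreated cells at 24 and 48 h in batch 1, 1 line per gene and 1 panel per treatment, with sterol enzymes in blue, regulators and carriers in purple and fatty acid enzymes in brown. Full lines mark the genes whose change differed between the times at an adjusted p-value under 0.05, and pale lines the others. Most full lines rise with N-OmtOspc (19 of 24), fall with OmtOspc and MacOmtOspc (20 of 20 and 21 of 21), and there is none with N-MacOmtOspc.

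Against whole CKI the pair alone differed in 4 members at 24 h and 28 at 48 h. At 24 h 2 of the 31 genes were higher and 2 lower, beside 1.24% and 1.08% of all genes. The higher ones were SREBF1 (1.77) and SCD (1.35) and the lower ones TM7SF2 (-0.87) and ELOVL6 (-0.83). None of the 4 was called without CKI replicate 2 or 3 or OmtOspc replicate 3. Without the 2 libraries of these groups that stood apart, 2 were higher and 1 lower, TM7SF2 being no longer called (-0.93), beside 282 of 14226 genes called. At 48 h 17 sterol enzymes were lower than with CKI and none was higher, at a median log2 fold change of -1.08, and 5 fatty acid enzymes were lower and 2 higher, beside 31.4% and 33.2% of all genes. TM7SF2 (-2.27), MSMO1 (-1.78) and EBP (-1.57) were furthest below. Adding macrozamin to the pair made no call at 24 h. Of 14211 genes 0 were called (0% higher and 0% lower) by edgeR's test and 0 by DESeq2, and 569 genes, 4 of them members, had an unadjusted p-value under 0.05. Without OmtOspc replicate 1, 7 members were called, and without replicate 2 none was. At 48 h 20 members were higher with macrozamin and none lower, beside 5.9% and 3.82% of all genes, with log2 differences of at most 0.40 (FASN). That count was 13 without OmtOspc replicate 3, 6 with the 18 libraries of that time in 1 fit, and 0 with all 54.

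In batch 2 each mixture lacked 1 compound. Without macrozamin, N-methylcytisine or trifolirhizin, most sterol enzymes were lower than untreated and all fatty acid enzymes were, and without oxymatrine the sterol enzymes moved both ways. The sterol counts were 3 higher and 10 lower with N-Mac (background 36.5% and 36%), 2 and 13 with N-Nme (background 34.9% and 34.6%), 3 and 12 with N-Tri (background 37.1% and 37.2%), and 12 and 7 with N-Omt (background 39.4% and 40.2%). Each of these mixtures lowered all 7 fatty acid enzymes. The 4 mixtures and CKI share the 3 untreated libraries of that batch.

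MVK fell most among the sterol enzymes with N-Mac, N-Nme and N-Tri. It was at 55.01, 47.4 and 54.4 CPM in untreated cells, 15.6, 15.2 and 14.1 CPM with N-Mac, 14.6, 13.8 and 12.4 CPM with N-Nme, 14.5, 14.2 and 13.9 CPM with N-Tri and 28.1, 27.4 and 30.4 CPM with N-Omt. Every one of these treated libraries was under every untreated one, and the log2 fold changes were -1.79, -1.96, -1.88 and -0.86, with SEs of 0.07 to 0.09. LSS was at 420.2, 382 and 444 CPM untreated and 174, 169 and 182 CPM with N-Nme, and changed by -1.12, -1.25, -0.97 and -0.35 in the same order. ACAT2 changed by -0.54, -1.04, -0.99 and -0.47, MVD by -0.83, -0.81, -0.67 and -0.41, and FDPS by -0.44, -0.80, -0.87 and -0.49, all called. EBP was not called with N-Mac (-0.04), changed by -1.03 and -0.70 with N-Nme and N-Tri, and rose by 0.80 with N-Omt. MSMO1 still rose, by 0.69, 0.29, 0.66 and 1.40, and SQLE was called only with N-Omt, at 0.72. DHCR7 rose by 0.30 with N-Omt, changed by -0.55 and -0.21 with N-Nme and N-Tri, and was at 0.11, not called, with N-Mac.

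Most fatty acid enzymes were lower with these mixtures than with whole CKI, and FADS1 was not, at 0.21 and 0.43 (called higher) with N-Mac and N-Omt and 0.04 and -0.04 (not called) with N-Nme and N-Tri. SCD was not called with N-Omt either, at 0.06, and was lower by small amounts in the others (-0.13, -0.27 and -0.31 with N-Mac, N-Nme and N-Tri). FASN was at 1287, 1067 and 1307 CPM in untreated cells, 711, 643 and 678 CPM with CKI and 172, 188 and 182 CPM with N-Mac. The last group lay under both others, and its log2 fold change against untreated was -2.75 (SE 0.08, adjusted p = 1.16e-13), with -2.42, -2.18 and -2.03 in N-Nme, N-Tri and N-Omt. FADS2 went from 509.9, 488 and 509 CPM to 152, 137 and 145 CPM with N-Nme and changed by -1.51, -1.81, -1.66 and -1.41. ACACA changed by -0.92, -0.90, -1.13 and -0.86. It was at 147, 137 and 142 CPM untreated and 68.6, 63.5 and 63.1 CPM with N-Tri, without overlap. SREBF1 changed by -2.34, -1.88, -1.75 and -1.92, and SREBF2, which whole CKI raised by 0.13, changed by -0.48, -0.73, -0.56 and -0.38. SREBF2 was at 264, 258 and 279.8 CPM untreated and 165, 159.6 and 161 CPM with N-Nme.

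Compared directly with whole CKI, 17 sterol enzymes were lower and 1 higher with N-Mac (background 36.2% lower and 36.6% higher), 18 and 1 with N-Nme (background 35.5% and 37.3%), 18 and 1 with N-Tri (background 38.6% and 38.4%), and 13 and 1 with N-Omt (background 40.4% and 40.1%). The medians were -0.79, -1.18, -0.89 and -0.37. GGPS1 was the sterol enzyme that was higher each time, by 0.22, 0.33, 0.45 and 0.35. HMGCS1, MSMO1, NSDHL, HSD17B7 and EBP were not called with N-Omt, at 0.01, -0.07, 0.05, -0.05 and -0.06, with SEs of 0.03 to 0.06. With N-Nme the same genes were at -0.85, -1.18, -0.69, -0.36 and -1.88. The mixtures were not tested against one another.

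**Figure D4:**
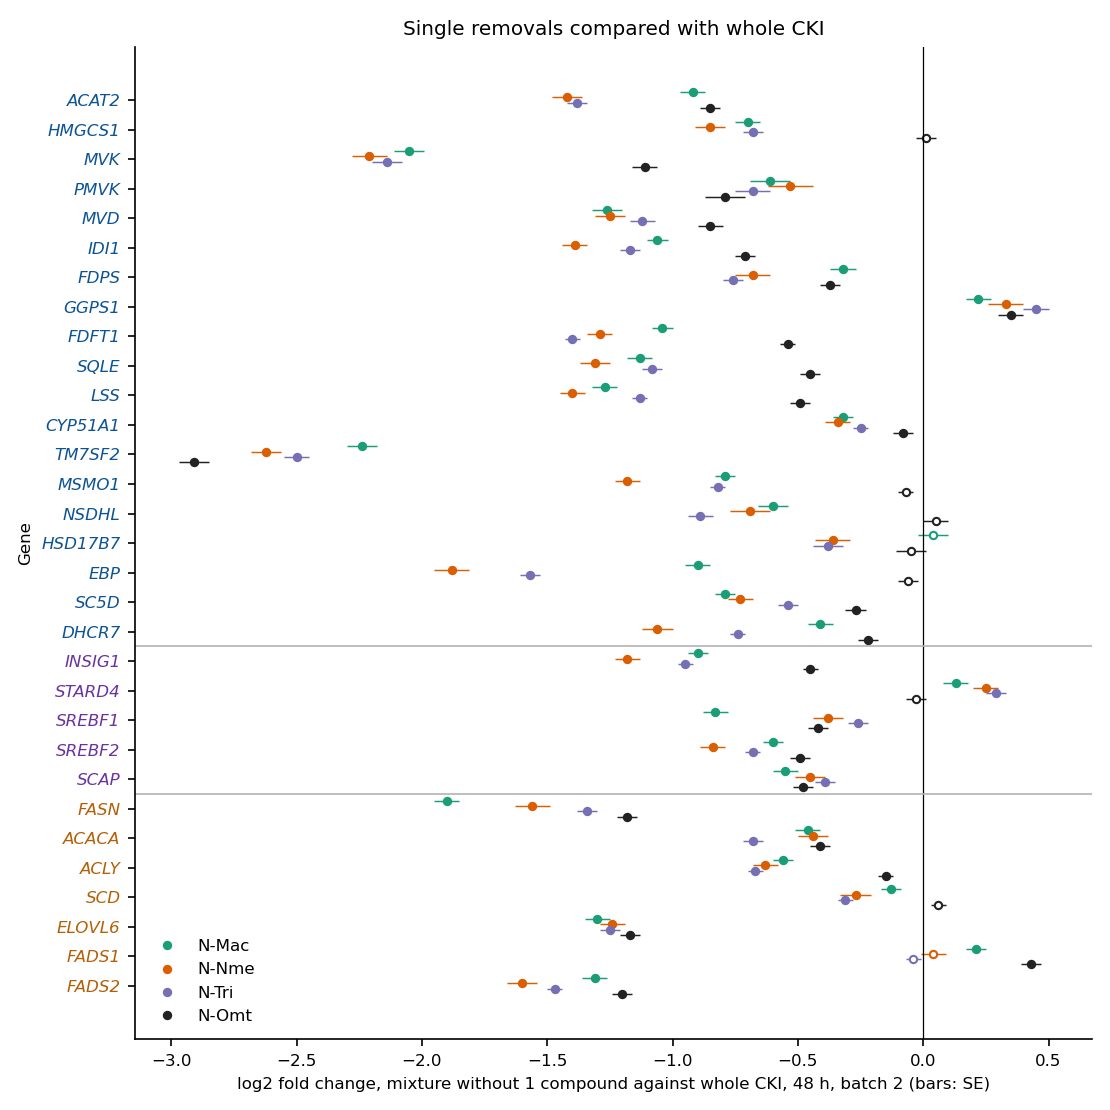
Log2 fold change of each gene in the mixtures lacking 1 compound against whole CKI at 48 h in batch 2 (horizontal axis, SE bars), with filled points for calls at an adjusted p-value under 0.05 and open points for the rest. Most points lie left of 0, TM7SF2 is furthest left (-2.24 to -2.91), GGPS1 lies right of 0 in all 4 mixtures, and the black N-Omt points sit nearest to 0 for most sterol enzymes, with TM7SF2, PMVK, FDPS, GGPS1 and HSD17B7 as exceptions.

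TM7SF2 and ELOVL6 were highest with whole CKI. TM7SF2 averaged 85.8 ± 1.26 CPM in batch 1 and 86.96 ± 1.37 CPM in batch 2 with CKI at 48 h (SD, n = 3 each), and between 11.4 ± 1.19 CPM (N-Omt) and 25.5 ± 2.44 CPM (N-OmtOspc) in the 8 mixtures at that time (SD, n = 3 each). Against CKI its log2 fold change was -2.24, -2.62, -2.50 and -2.91 with N-Mac, N-Nme, N-Tri and N-Omt, with SEs of 0.05 to 0.06. ELOVL6 differed from CKI by -1.30, -1.24, -1.25 and -1.17. No mixture was called above untreated for ELOVL6, and TM7SF2 was called above untreated with N-OmtOspc at 48 h (0.29) and MacOmtOspc at 24 h (0.39). These genes were singled out after their values were seen.

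Over the 15 comparisons with untreated cells, which share controls within each time and batch, 19 of the 31 genes were called in both directions, 5 were called higher but never lower and 7 lower but never higher. How many of all genes follow such patterns was not counted, and 16.5% to 80.4% of all genes were called per comparison. The patterns are therefore a description of these members only. The genes never called lower were MSMO1 and GGPS1 (14 of 15 comparisons each), HSD17B7 (12), SQLE (11) and SC5D (11). GGPS1 ranged from 0.44 with OmtOspc at 24 h (not called) to 1.03 with N-Tri, where it was at 64.6, 69.5 and 72.8 CPM against 32.7, 33.1 and 35.8 CPM untreated. The genes never called higher were SREBF1 (15 of 15), FASN and ACACA (14 each), PMVK (13), ACLY and FADS1 (12 each) and SCD (10). The log2 fold change of SREBF1 nearest to 0 was -0.28 with MacOmtOspc at 24 h, and even there the treated libraries, at 491, 493 and 408 CPM, stayed under the untreated ones. Replicates of SREBF2 with N-MacOmtOspc at 48 h were spread widely, at 253, 354 and 215 CPM, and its log2 fold change of 0.02 became -0.21, called, without replicate 2.

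The remaining genes called in both directions are given here at their highest and lowest log2 fold changes. MVD was at 137, 131 and 151 CPM with N-OmtOspc at 48 h against 59.1, 66.9 and 69.1 CPM untreated (1.11), and at 29.9, 27.0 and 28.2 CPM with N-Mac against 54.1, 41.2 and 56.7 CPM (-0.83). IDI1 was at 254, 227 and 231 CPM with CKI against 124, 116 and 114 CPM untreated at 48 h in batch 1 (1.02), and at 111, 113 and 112 CPM with N-Nme against 154, 149 and 174 CPM (-0.51). In both genes the treated libraries lay wholly above and then wholly under the untreated ones. FDPS was at 156, 144 and 143 CPM with MacOmtOspc at 24 h against 118, 124 and 112 CPM (0.32), and at 65.3, 63.9 and 68.7 CPM with N-Tri against 119, 111 and 132 CPM (-0.87). CYP51A1 was at 227, 226 and 215 CPM with CKI against 151, 129 and 127 CPM at 48 h in batch 1 (0.72), and at 69.2, 69.8 and 72.9 CPM with N-OmtOspc at 24 h against 119, 121 and 124 CPM (-0.76), the only one of the 15 comparisons in which it was called lower. NSDHL was at 112, 106 and 105 CPM with N-OmtOspc at 48 h against 68.9, 73.7 and 73.7 CPM (0.58), and at 40.9, 39.5 and 39.4 CPM with N-Tri against 59.05, 53.8 and 66.3 CPM (-0.58). DHCR7 was called higher in 11 comparisons, at most 1.14 with CKI at 48 h in batch 1, where it was at 622, 655 and 690.4 CPM against 299, 295 and 307 CPM. It was lower with N-Nme, at 260.5, 232 and 229.9 CPM against 357, 290 and 401 CPM (-0.55). SCAP was at 223, 187 and 185 CPM with N-OmtOspc at 24 h against 137, 130.5 and 136 CPM (0.58) and 92.03, 89.1 and 82.02 CPM with N-Mac against 102, 103 and 113 CPM (-0.26).

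Neighbouring lipid genes, in 6 lists of 68 genes of which 66 were found, were called in both directions. For whole CKI at 48 h in batch 2, where 34.1% of all genes were higher and 34.4% lower, 5 of 7 SREBP processing genes were called higher and 1 lower, 3 and 7 of 13 in the branches that leave the mevalonate pathway, 5 and 5 of 12 in sterol uptake, trafficking and esterification, 5 and 1 of the 8 tested partners of the sterol enzymes, 7 and 4 of the 15 tested in other fatty acid synthesis, and 4 and 4 of 10 in acyl-CoA and glycerolipid synthesis. The medians of these lists were 0.40, -0.37, 0.07, 0.29, 0.11 and 0.08, against 0.00 over all genes. At 48 h in batch 1 the counts in the same order were 3 and 1, 2 and 6, 6 and 4, 2 and 1, 7 and 2, and 5 and 2, with medians of 0.13, 0.00, 0.13, 0.04, 0.15 and 0.14. At 24 h they were 3 and 1, 2 and 3, 3 and 4, 2 and 2, 4 and 2, and 2 and 1, with medians of 0.14, -0.03, 0.05, -0.02, 0.05 and 0.03. The genes called most often were named by a fixed rule, and how many of all genes are called as often was not counted. In SREBP processing, RNF139, a ligase of the endoplasmic reticulum, was higher in 13 of 15 comparisons and INSIG2 in 11, by 0.73 with CKI in batch 2, and ERLIN1 was lower in 13. In the branches that leave mevalonate for other products, FNTA, a prenyltransferase subunit, was higher in all 15 (0.26 to 1.05), and PDSS1 and COQ2, which make ubiquinone, were lower in 14 and 13, with their lowest values in N-OmtOspc, -2.77 at 24 h and -2.10 at 48 h. Outside the rule, other prenyltransferase subunits of that list went both ways. FNTB was lower in 11 (lowest -3.55, with N-Omt) and RABGGTA in 13, neither of them ever called higher. RABGGTB was higher in 9 and lower in 2, and PGGT1B higher in 5 and lower in 5. STARD3 and OSBP, which carry sterols between membranes, were higher in 14 and 13, and LIPA, the lysosomal lipase that frees cholesterol from its esters, lower in 13. Among partners of the sterol enzymes, mitochondrial ACAT1 was lower in 12, and FAXDC2 lower in 11 and higher in 1. In fatty acid supply, ME1, which makes NADPH, was higher in 12, MLXIPL, a glucose-responsive factor, higher in 10, and ACACB lower in 11 and higher in 2. In acyl-CoA and glycerolipid synthesis, ACSL1 was higher in all 15 (0.21 to 0.57), PCYT2 lower in 12 and higher in 1, and DGAT2 lower in 11 and higher in 2, the 2 being whole CKI at 48 h (0.48 and 0.49).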

How the data were processed

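RNA of 54 samples of MDA-MB-231 cells, 18 groups of 3 biological replicates, was sequenced from strand-specific libraries. The authors deposited raw counts per gene in 1 table. The submitters' processing notes name FastQC 0.11.4, Trim Galore 0.3.7, STAR 2.5.3a, Subread 1.5.2 with featureCounts, edgeR 3.22.3 and the build hg19, and the annotation and the strand setting of the counting are not given in the sources used here. Reads of overlapping genes (TM7SF2 with VPS51, FADS1 with FADS2) or near-identical copies (HSD17B7, FDPS) could be shared or lost in that step.

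Table columns were mapped to samples by their labels. The column taken as N-MacOmtOspc replicate 2 at 24 h carried an added suffix (.A). It was mapped to the only sample whose label it starts with. From the counts, edgeR 4.0.16 (R 4.3.3) computed filterByExpr, TMM factors and quasi-likelihood tests on the libraries of the groups compared, with Benjamini-Hochberg adjustment over all genes tested. Calls were made at an adjusted p-value under 0.05. There were 15 comparisons with untreated cells, 12 between mixtures and 6 tests of a difference between times or batches. On simulated counts for CKI at 48 h in batch 2, 94% of 200 genes changed by 1 on the log2 scale were called, with 5 false calls among 14245 genes. For CKI at 24 h it was 92%, with 6 false calls among 14094 genes. The simulation had 1 dispersion (0.02), few changed genes, as many rises as falls and no library standing apart. It therefore cannot show how the test behaves where the data depart from this. Alternatives were other scalings, filters, fits, DESeq2 1.42.0, a replicate block and leaving out libraries. The gene members and lists were chosen with earlier results of these data known. The genes given in every library were those called most often in 1 direction (up to 5 sterol enzymes, 2 regulators and 3 fatty acid enzymes) and those called in both, and up to 3 genes of each list of neighbouring lipid genes were named by the same count. Replicates differed by more than counting noise (chi-square per degree of freedom of 1.97 to 131), and p-values measure only the spread between cultures of 1 line. Promoters were matched by gene symbol in Python 3.11.15. Of the genes named by the rule above, 1 is not reported here.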

Additional observations from a re-analysis of the deposited data

Results flagged for a closer look

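Effects that differed between the times of 1 treatment, or between the batches for CKI, were looked at again, each by its own test in edgeR with adjustment over all genes. The effect at 48 h differed from that at 24 h for 5 of the 31 genes with CKI, 24 with N-OmtOspc, 20 with OmtOspc and 21 with MacOmtOspc. Of all genes tested, 1.56%, 41%, 11.9% and 21% differed in the same tests. The CKI effect at 48 h differed between the batches for 10 of the 31 genes, beside 13.8% of all genes. Some genes were called on opposite sides of untreated at the 2 times. With N-OmtOspc these were HMGCS1 (difference of 1.71 on the log2 scale, 48 h minus 24 h), IDI1 (1.04), CYP51A1 (0.97) and TM7SF2 (0.85), all lower at 24 h and higher at 48 h. With OmtOspc they were IDI1 (-0.99), LSS (-0.96), FDFT1 (-0.91), INSIG1 (-0.83) and SREBF2 (-0.66), all higher at 24 h and lower at 48 h. With MacOmtOspc they were ACAT2 (-1.03), EBP (-0.88), FADS2 (-0.73), LSS (-0.71) and FDPS (-0.68), with the same order. Groups of 3 libraries are too small for a test of single outlying samples.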

How the results depend on the processing

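Requiring a log2 fold change of at least 1 in size as well lowered the counts of the 31 genes called against untreated from 20 to 4 (CKI, 24 h), 22 to 6 (N-OmtOspc, 24 h), 14 to 3 (N-MacOmtOspc, 24 h), 13 to 1 (OmtOspc, 24 h), 27 to 0 (MacOmtOspc, 24 h), 30 to 8 (CKI, 48 h, batch 1), 24 to 11 (N-OmtOspc, 48 h), 20 to 5 (N-MacOmtOspc, 48 h), 27 to 2 (OmtOspc, 48 h), 24 to 0 (MacOmtOspc, 48 h), 29 to 4 (CKI, batch 2), 25 to 6 (N-Mac), 27 to 7 (N-Nme), 29 to 5 (N-Omt) and 26 to 7 (N-Tri). Between mixtures the counts went from 21 to 7 (N-OmtOspc against CKI, 24 h), 13 to 3 (N-MacOmtOspc against N-OmtOspc, 24 h), 4 to 2 (OmtOspc against CKI, 24 h), 25 to 3 and 14 to 0 (the first pair of contrasts at 48 h), 28 to 11 (OmtOspc against CKI, 48 h), 20 to 0 (MacOmtOspc against OmtOspc, 48 h), and 30 to 10, 30 to 15, 24 to 5 and 30 to 12 (N-Mac, N-Nme, N-Omt and N-Tri against CKI). The share of all genes that passed this added threshold was not counted, so these counts show only how the members' own counts depend on it.

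Leaving out the 3 libraries that stood apart moved N-MacOmtOspc at 24 h from 14 to 25, the CKI difference between times from 5 to 14 and that of N-MacOmtOspc from 0 to 6, and HMGCS1 with N-MacOmtOspc at 24 h went from 0.22 to -0.31. Calls over all genes rose in the same fits, to 10086 of 14766, 1418 of 15012 and 2205 of 15190. Fitting 18 libraries together gave 8 for MacOmtOspc at 24 h, 8 for OmtOspc against CKI at 24 h and 6 for MacOmtOspc against OmtOspc at 48 h. Fitting all 54 gave 22 for N-MacOmtOspc against N-OmtOspc at 24 h, 14 for OmtOspc against CKI at 24 h, 15 for N-OmtOspc against CKI at 48 h and 0 for MacOmtOspc against OmtOspc at 48 h. Library sizes alone gave 20 for N-MacOmtOspc against N-OmtOspc at 24 h, and DESeq2 8 for OmtOspc against CKI at 24 h, where it called 1123 genes in all. For library sizes alone and the fits of 18 or 54 libraries, calls over all genes are not given. Among scalings, library sizes alone moved the median of all genes by -0.34 to 0.28, over 0.1 in 4 of 27 comparisons. The replicate numbers recur in each group but did not pair the samples (correlations of deviations of -0.224 to 0.223, and in 0 of 15 comparisons was each over 0.1). With the replicate number as a block, OmtOspc against CKI at 24 h went from 4 to 0 and the CKI difference between times from 5 to 0, and no other count moved by over 1.5 times. The cause of these changes was not tested.

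Leaving out 1 library at a time gave 10 to 25 for N-MacOmtOspc at 24 h, 4 to 19 for OmtOspc at 24 h, 3 to 15 and 7 to 19 for N-MacOmtOspc against N-OmtOspc at 24 and 48 h, 0 to 5 for OmtOspc against CKI and 0 to 7 for MacOmtOspc against OmtOspc at 24 h, 13 to 21 for the latter at 48 h, 1 to 14 and 0 to 6 for the differences between times with CKI and N-MacOmtOspc, and 5 to 16 for that between batches. The last was 5 without untreated replicate 2 of batch 1, 6 without CKI replicate 1 or 3 of batch 2, and 16 without untreated replicate 2 of batch 2. Apart from the fits without the libraries that stood apart, calls over all genes are not given, so these ranges describe the members' counts only. Total counts of 17673537 or more left no member limited by depth.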
